A study of Mus musculus with 44 samples.

Results

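The cytosolic ribosomal protein genes encode the protein part of the ribosomes that translate nuclear-coded mRNA, as distinct from the mitochondrial ribosome, whose genes carry other names. They were taken by symbol from a deposited table of read counts, as every gene named Rpl or Rps followed by a number (with the letter forms in use), together with Rplp0, Rplp1, Rplp2 and Rpsa; pseudogene names and the S6 kinases were left out. The rule found 87 of the 46078 genes in the table, 50 of the large and 37 of the small ribosomal subunit. Of these, 82 had enough reads to be tested. The other 5, Rps3a3, Rps12l2, Rpl10l, Rps3a2 and Rps12l1, are named copies with 122, 96, 11, 10 and 0 reads over all libraries. Rpl13 was not analysed here, and Fau, Rack1, Rpl36al and Rps27rt, which also stand for ribosomal proteins or sit on the ribosome, fall outside the rule. None of them was called against controls in the comparisons below.

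The cells were thioglycolate-induced peritoneal macrophages of C57BL/6 mice. These are macrophages drawn into the abdominal cavity by an irritant and collected 4 days after its injection as the cells that adhered to plastic. They were cultured in medium with fetal bovine serum and exposed for 8, 24 or 72 h to an extract of H9c2 cells (a line of rat heart myoblasts) at 10 µg/mL, to LPS (bacterial lipopolysaccharide, which signals through Toll-like receptor 4) at 100 ng/mL, or to the type 2 cytokine IL-4 at 10 ng/mL, or were left untreated as controls. The resulting 12 groups held 44 libraries of polyA RNA, with 4 libraries per group except for cell extract 24 h, cell extract 72 h, IL-4 72 h and control 72 h, which had 3. All cells came from 1 isolate pooled from several mice, so the replicates are cultures of that isolate, and every p-value below measures the spread between those cultures and not between animals. In bulk RNA of this kind, fewer cells of a type and less RNA per cell cannot be told apart.

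Ribosomal protein genes are among the most strongly expressed genes of growing cells, and their products are made in matched amounts because each ribosome carries a copy of nearly every protein. Their mRNAs typically begin with a run of pyrimidines, the 5′ terminal oligopyrimidine (TOP) tract, which lets the growth kinase mTORC1 and the RNA-binding protein LARP1 switch their translation on and off while the mRNA itself stays. A count of mRNA therefore reports the supply of message and not its use. A few members have paralogs that can take their place in the ribosome: Rpl22l1 for Rpl22, Rps27l for Rps27 (a p53 target in mammalian cells), Rpl39l for Rpl39 (best known from testis), Rpl3l for Rpl3 (best known from heart and skeletal muscle). Rpl7l1 resembles Rpl7 but is known from ribosome assembly.

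Start-site sequences of a few members are shown as examples. RefSeq promoters on GRCm38.p6 were found for 62 of the 87 genes. The 30 bases below run 5′ to 3′ from 15 before to 15 after the annotated start, and capitals mark the pyrimidine runs CTTTC and CTTTT. Rps6 is given as the small-subunit protein phosphorylated by S6 kinase, Rps27 as the main gene of Rps27l, Rpl13a as a common reference gene, Rps15a because it rose with LPS, and the paralogs Rps27l, Rpl22l1 and Rpl7l1 because each was called below.
Rps6, chr4:86857353-86857382, minus strand: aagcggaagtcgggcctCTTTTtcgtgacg
Rps27, chr3:90213634-90213663, minus strand: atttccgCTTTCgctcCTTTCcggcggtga
Rps15a, chr7:118116133-118116162, minus strand: ctctCTTTCtgccatcttccctcgccggtg
Rpl13a, chr7:45128731-45128760, minus strand: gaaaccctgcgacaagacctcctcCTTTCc
Rps27l, chr9:66946071-66946100, plus strand: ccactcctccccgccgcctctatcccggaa
Rpl22l1, chr3:28805493-28805522, plus strand: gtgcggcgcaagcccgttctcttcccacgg
Rpl7l1, chr17:46782642-46782671, minus strand: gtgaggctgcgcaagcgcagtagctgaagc
Within 25 bases on either side of the start, on the gene's own strand, CTTTC or CTTTT (which can share a C where they adjoin) stood in 22 of the 62 genes (35.5%), against 13.2% of all 27025 genes with a RefSeq promoter. A gene counted if any of its annotated starts matched. Rps27l has 2 annotated starts, of which the first is shown above. CTTTC alone stood in 18 (29.0%, against 7.87%) and CTTTT alone in 7 (11.3%, against 6.24%). CCGGAAG, an ETS-type motif, was found on either strand between 250 bases before and 50 after the start in 26 of the 62 (41.9%, against 9.93%), and the E-box CACGTG, the site of Myc and Max, in 6 (9.68%, against 8.09%). These are letter matches in annotated windows and not measured sites.

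Per length, the members spanned a wide range of mRNA levels. Levels are given in CPM, read counts scaled to a common library total after correction by the trimmed mean of M-values. They are divided by the length of the annotated exons in kb where genes are compared with each other. The 76 tested main members had mean levels of 33.5 to 1895 CPM per kb over all libraries, with a median of 245. The 5 highest were Rps29 (1895 CPM per kb), Rplp1 of the ribosomal stalk (1681), Rpl38 (1203), Rps21 (990) and Rpl32 (762). The 5 lowest of the 82 tested genes were all paralogs or copies: Rpl3l at 0.285, Rpl39l at 1.49, Rps4l at 4.81, Rpl22l1 at 25.1 and Rpl7l1 at 28.4 CPM per kb. Rps4l is annotated as a transcribed processed pseudogene, and its reads may be shared with Rps4x.

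As a whole, the 87 genes took 2.36 to 8.28% of the reads counted to genes in a library. Their share averaged 3.93 ± 0.22% with cell extract, 3.44 ± 0.49% with LPS, 5.0 ± 1.55% with IL-4 and 4.28 ± 0.70% in controls at 8 h (SD, n = 4 each). At 24 h it averaged 2.69 ± 0.40% with cell extract (n = 3), 2.88 ± 0.29% with LPS, 4.57 ± 2.47% with IL-4 and 3.63 ± 0.52% in controls (n = 4 each). At 72 h it averaged 4.27 ± 0.35% with cell extract (n = 3), 5.96 ± 1.12% with LPS (n = 4), 4.18 ± 0.30% with IL-4 (n = 3) and 5.43 ± 1.16% in controls (n = 3). The lowest means were those of cell extract and LPS at 24 h, and the highest those of LPS and controls at 72 h. Gene by gene, the lowest of the 12 group means was that of cell extract 24 h for 67 of the 82 tested genes and that of LPS 24 h for 8, and the highest was that of LPS 72 h for 56 and that of control 72 h for 11. Between its highest and lowest group mean a main member differed by a median of 2.66-fold (range 1.62 to 5.37).

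**Figure D1:**
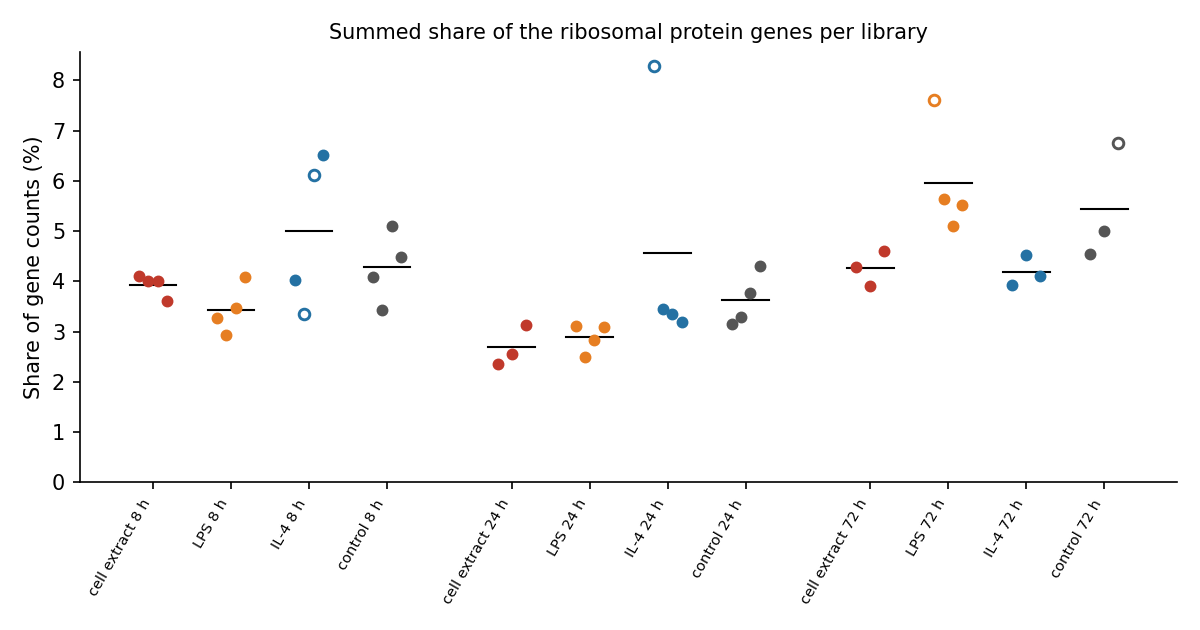
Summed share of the 87 ribosomal protein genes (vertical axis, percent of gene counts) in each of the 44 libraries, by stimulus and time; points are libraries, lines are group means, and open points are libraries under 2 M gene counts. Shares lie between 2.36 and 8.28%, and the highest of all is the open point of IL-4 24 h.

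Several libraries stood apart and touch these shares. The depth of a library was 0.908 to 26.6 M reads counted to genes (M, mega). Of the libraries, 5 were under 2 M: LPS 72 h replicate 1 (1.10 M), IL-4 8 h replicate 2 (1.71) and replicate 3 (1.5), IL-4 24 h replicate 1 (0.908) and control 72 h replicate 4 (1.79). In 6 of the 12 groups the shallowest library also had the highest summed level of the members, and IL-4 24 h replicate 1 reached 8.28% against 3.19 to 3.46% in the other IL-4 24 h libraries. In 10 libraries the ribosomal RNA gene Rn18s-rs5 took over 1% of counts, among them control 72 h replicates 3 and 4. Without the libraries under 2 M, the mean share was 5.27% with IL-4 at 8 h (n = 2), 3.34% with IL-4 at 24 h (n = 3), 5.42% with LPS at 72 h (n = 3) and 4.77% in controls at 72 h (n = 2). Without the libraries rich in ribosomal RNA, it was 4.45% with cell extract (n = 2), 6.62% with LPS (n = 2) and 4.23% with IL-4 (n = 2) at 72 h, beside 4.54% in the lone control. The part of depth and ribosomal RNA in the results was tested only by leaving these libraries out and by a depth covariate. All 10 macrophage markers checked, among them Adgre1, Csf1r and Lyz2, were expressed in these cultures.

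With an edgeR quasi-likelihood fit over all 14537 tested genes (calls at a Benjamini-Hochberg adjusted p under 0.05), single members were rarely called. A member that was not called may still have changed. Over the 9 comparisons of a stimulus with the control of the same time, 32 of 738 tests were called, 17 higher and 15 lower, and 64 of the 82 genes were called in none of them. Cell extract against control gave 1 higher and 1 lower at 8 h, 0 and 4 at 24 h, and 0 and 2 at 72 h. Of all tested genes 13% were higher and 17.2% lower at 8 h, 11.7% and 10.4% at 24 h, and 14.2% and 12.2% at 72 h. LPS gave 6 higher and 0 lower at 8 h (all genes 21.3% and 24.1%), 4 and 6 at 24 h (18.6% and 19.3%), and 4 and 1 at 72 h (16.1% and 15.4%). IL-4 gave 0 and 0 at 8 h (4.29% and 4.04%), 1 and 0 at 24 h (4.74% and 4.76%), and 1 and 1 at 72 h (13.2% and 10.5%). At 8 h with IL-4, 1 member was higher and 0 lower at an unadjusted p under 0.05, and DESeq2 also called 0. In each of these comparisons, and in both directions, the share of members called lay below that of all genes.

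Small shifts ran the same way in most members at a given time and stimulus, but those at 72 h depended on the libraries used. Against controls, the median log2 fold change of the 82 genes was -0.06 with cell extract at 8 h (24 above 0, 58 below), -0.38 at 24 h (4 above, 78 below) and -0.28 at 72 h (11 above, 71 below). The median over all tested genes was -0.06, -0.06 and 0.00. With LPS it was 0.16 at 8 h (61 above, 21 below), -0.17 at 24 h (22 above, 60 below) and 0.28 at 72 h (67 above, 15 below). Over all genes it was 0.00, -0.07 and 0.05. With IL-4 it was 0.18 at 8 h (68 above, 14 below), 0.37 at 24 h (73 above, 9 below) and -0.31 at 72 h (12 above, 70 below). All genes then had medians of -0.04, -0.03 and 0.00. The median IL-4 shift at 24 h became -0.11 without IL-4 24 h replicate 1, the shallowest library. Without the libraries rich in ribosomal RNA, which left a lone control at 72 h, the medians of that time were 0.012 with cell extract, 0.64 with LPS and -0.011 with IL-4. With depth as a covariate they were 0.048 with cell extract and 0.13 with IL-4. Large and small subunit genes had like medians throughout, for instance -0.35 and -0.42 with cell extract at 24 h and 0.28 and 0.27 with LPS at 72 h. Members are not replicates of a condition, so these medians have no test. The median standard error of a member's log2 fold change was 0.27 with cell extract at 8 h, 0.29 at 24 h and 0.31 at 72 h. Over all tested genes it was smaller, at 0.22, 0.23 and 0.28, so shifts of a like size were harder to call in members.

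**Figure D2:**
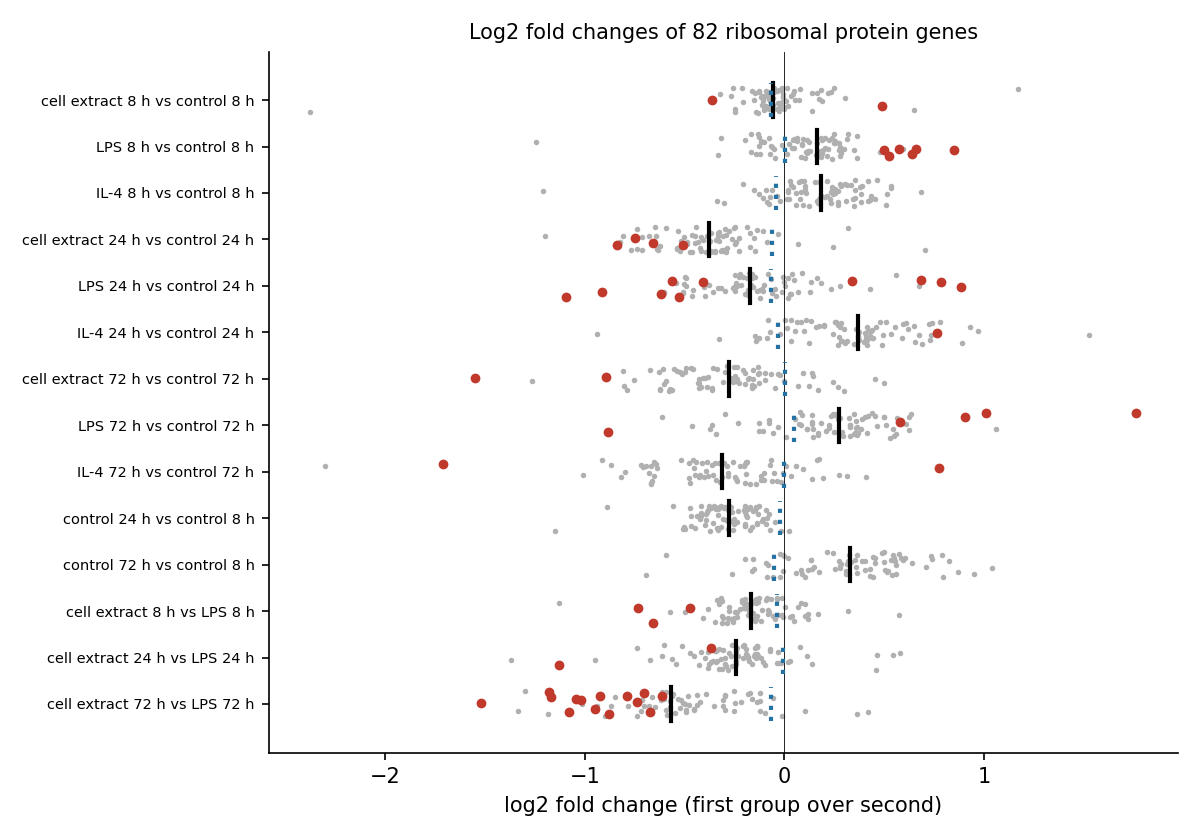
Log2 fold changes (horizontal axis, group named before "vs" over the group after it) of the 82 tested ribosomal protein genes in 14 comparisons; points are genes, red where the edgeR adjusted p was under 0.05, black bars mark the median of the genes and dotted blue bars that of all tested genes. The 14 red points of cell extract 72 h vs LPS 72 h all lie below 0.

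The sign of the LPS shift at 8 h depended on the scaling. With library totals alone in place of the trimmed mean of M-values, 0 members were higher and 13 lower, and their median was -0.30 at a median of -0.46 over all genes, so that relative to all genes the members stayed above. The same change of scaling turned the calls over all genes at 8 h with LPS into 1825 higher and 6313 lower, against 3099 and 3506 in the fit reported here. Cell extract against LPS at 8 h moved likewise, to a member median of 0.22 at an all-gene median of 0.35.

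Rpl24, a large-subunit protein that bridges to the small subunit, showed the largest rise among the calls against controls. At 72 h it had 360, 799, 431 and 525 CPM with LPS, against 109, 144 and 218 CPM in controls, 3.39-fold higher with no overlap (log2 fold change 1.76 ± 0.41 SE, adjusted p = 0.00068). With cell extract it had 204, 163 and 187 CPM, 2.87-fold below LPS (-1.52 ± 0.40, adjusted p = 0.0047). At 8 h its LPS libraries were spread from 134 to 395 CPM and overlapped the controls at 87.0 to 234 CPM, and its call there (0.85 ± 0.36, adjusted p = 0.049) was lost in 5 of 10 other settings. Rps20, of the small subunit, had 998 ± 276 CPM with LPS and 694 ± 173 CPM in controls at 8 h (0.52 ± 0.21, adjusted p = 0.039, n = 4 each), with overlap. That call was lost in 4 of 10 other settings and on leaving out any of 4 libraries. Rps15a, a small-subunit protein whose start window above holds a CTTTC, was also higher with LPS at 72 h, at 1420, 1783, 1133 and 1417 CPM against 615, 804 and 888 CPM (0.90 ± 0.26, adjusted p = 0.0052), again without overlap. Both calls at 72 h, of Rpl24 and Rps15a, held in each of the 11 other settings and without any single library. Rpl19 averaged 293 ± 65.8 CPM with LPS (n = 4) and 198 ± 67.9 CPM in controls (n = 3), overlapped between the groups, and was lost in 4 settings (0.58 ± 0.21, adjusted p = 0.032).

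Rpl10a and Rpl3, both of the large subunit, fell with LPS at 24 h. Rpl10a (chr17:28328471-28331033) had 109.9, 88.4, 109.6 and 107 CPM with LPS against 149.9, 228, 246 and 263 CPM in controls, 2.14-fold lower (-1.10 ± 0.24, adjusted p = 0.00026). Rpl3, which sits at the peptidyl transferase centre, had 180, 186, 210 and 192 CPM against 262, 383, 383 and 419 CPM, 1.88-fold lower (-0.91 ± 0.25, adjusted p = 0.0030). No LPS library reached the lowest control for either gene, and both calls held in every setting. Smaller falls at 24 h with LPS were called for Rpl10 (-0.53), Rpl4 (-0.41) and Rps16 (-0.62), among others. Rpl4 and Rps16 were each lost in 3 or more settings, and Rpl10 without the libraries rich in ribosomal RNA.

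At 72 h Rpl10a was called lower with both cell extract and LPS. It had 189.9, 174 and 192 CPM with cell extract and 265, 138, 162 and 191 CPM with LPS, against 316, 308 and 412 CPM in controls. All libraries of both stimuli lay below all controls (cell extract -0.89 ± 0.28, adjusted p = 0.014, and LPS -0.88 ± 0.26, adjusted p = 0.0067). The IL-4 libraries also lay below all controls, at 259 ± 36.1 CPM against 345 ± 57.7 CPM, but Rpl10a was not called there (-0.41 ± 0.27, edgeR adjusted p = 0.28, n = 3 each). Rpl37a, a zinc-binding large-subunit protein, was called lower with cell extract and IL-4. It had 168, 244 and 251 CPM with cell extract and 179, 205 and 209 CPM with IL-4, against 450.1, 595 and 897 CPM in controls. These are 2.93-fold (-1.55 ± 0.35, adjusted p = 0.00085) and 3.27-fold (-1.71 ± 0.35, adjusted p = 0.00035) lower, whereas LPS cultures at 712, 301, 472 and 521 CPM overlapped the controls. All 4 calls were lost without the libraries rich in ribosomal RNA, control 72 h replicates 3 and 4 among them. That left a lone control, assumed to vary like the other groups, and larger standard errors. Rpl37a was then -1.07 ± 0.54 with cell extract and -1.20 ± 0.53 with IL-4, and Rpl10a -0.71 ± 0.44 with cell extract and -0.67 ± 0.45 with LPS. The Rpl10a call with cell extract was also lost with depth as a covariate and without control 72 h replicate 4. Rpl29, of the large subunit, was the member called higher with IL-4 at 72 h, at 72.7 ± 3.54 CPM against 42.9 ± 17.3 CPM in controls (0.78 ± 0.29, adjusted p = 0.046, n = 3 each), and was lost in 8 of 11 settings. The comparisons share the control libraries, so the values for cell extract, LPS and IL-4 are not independent of each other.

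Cell extract at 24 h gave the lowest levels of most members, but few calls. Rps15 (213 ± 50.1 CPM with cell extract, n = 3, and 381 ± 71.8 CPM in controls, n = 4), Rps16 (327 ± 52.6 and 550 ± 84.4 CPM) and Rpl10 (282 ± 11.7 and 401 ± 72.0 CPM) were lower, by -0.84 ± 0.31, -0.75 ± 0.27 and -0.51 ± 0.16 on the log2 scale (adjusted p = 0.046, 0.042 and 0.013). Rpl10, the large-subunit protein that is added last as the subunit matures, overlapped the controls through control replicate 1 at 293 CPM. The count of members lower was 25 when only these 2 groups were fitted and 0 without the rRNA-rich libraries. At 8 h Rpl10 fell with cell extract to 355 ± 17.1 CPM, against 456 ± 27.4 CPM in controls (-0.36 ± 0.14, adjusted p = 0.0499, n = 4 each), a call that was lost in 6 of 10 settings.

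**Figure D3:**
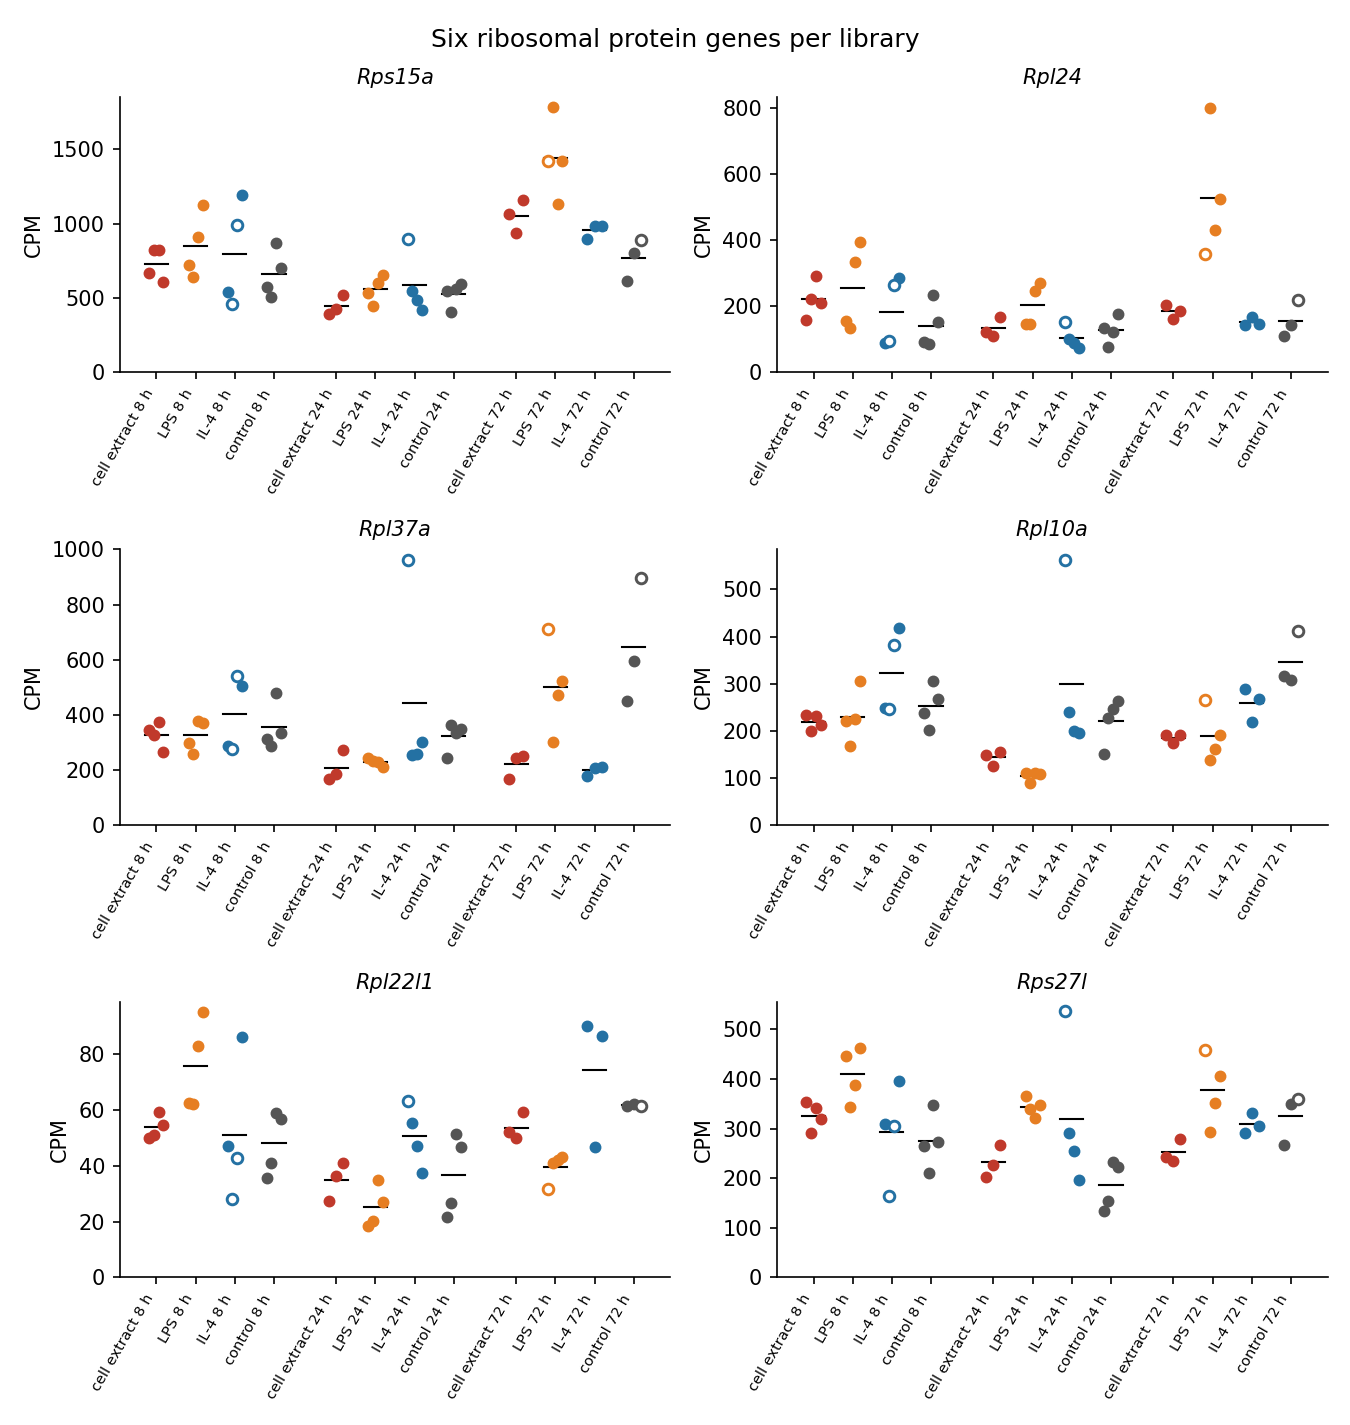
Level (vertical axis, CPM) of Rps15a, Rpl24, Rpl37a, Rpl10a, Rpl22l1 and Rps27l in each library, by stimulus and time; points are libraries, lines are group means, and open points are libraries under 2 M gene counts. Rps15a and Rpl24 have their highest group means with LPS at 72 h, and the open point of IL-4 24 h is high for Rpl37a, Rpl10a and Rps27l.

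Of the paralogs, Rpl7l1, Rps27l, Rpl22l1 and Rps4l were each called against controls at some time. Rpl7l1 had 116, 119, 124 and 112 CPM with cell extract and 128, 107, 116 and 123 CPM with LPS at 8 h, against 82.8, 74.1, 93.5 and 85.4 CPM in controls. Every stimulated library lay above every control (cell extract 0.49 ± 0.11, adjusted p = 0.00055; LPS 0.50 ± 0.11, adjusted p = 0.00026). The cell extract call held in every setting while the LPS call was lost with library totals alone and without the filter on low counts. Per 100 Rpl7 reads there were 31.6 ± 1.80 Rpl7l1 reads with cell extract and 20.7 ± 1.46 in controls, ranges that did not overlap (SD, n = 4 each). At 72 h Rpl7l1 had 94.3, 97.2 and 95.9 CPM with cell extract against 95.6, 95.3 and 125 CPM in controls, and the change of the effect between the times was itself called (-0.62 ± 0.17, adjusted p = 0.0072; lost without the filter on low counts and without rRNA-rich libraries). For LPS that change was -0.49 ± 0.17 (adjusted p = 0.022) and was lost in 6 of 11 settings.

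Rps27l rose with LPS at 8 and 24 h. At 24 h it had 366, 339, 321 and 347 CPM with LPS against 134, 154, 232 and 223 CPM in controls, 1.84-fold higher without overlap (0.88 ± 0.22, adjusted p = 0.0012), in every setting. Its ratio to Rps27 was then 109 ± 12.7 reads per 100 with LPS and 107 ± 13.1 with cell extract, against 59.0 ± 18.9 in controls; in the cell extract cultures Rps27l itself was not called. At 8 h it had 446, 343, 387 and 462 CPM with LPS against 265, 211, 348 and 274 CPM in controls (0.58 ± 0.22, adjusted p = 0.029), with an overlap at control replicate 3. That call was lost with upper-quartile scaling, with library totals alone, and on leaving out any of 6 of its 8 libraries. The IL-4 call at 24 h (0.76 ± 0.22, adjusted p = 0.020) came with IL-4 24 h replicate 1 at 536 CPM, beside 292, 254 and 197 CPM in the other libraries of that group, and was lost without it. It was also lost without control 24 h replicate 1 or 2, and when only the groups compared were fitted.

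Rpl22l1, which in mice is held down by the Rpl22 protein, stood above controls early and below them late under LPS. At 8 h it had 62.4, 62.1, 83.0 and 95.0 CPM with LPS, against 35.7, 41.1, 59.0 and 56.9 CPM in controls (0.66 ± 0.25, adjusted p = 0.027, no overlap), a call lost with upper-quartile scaling and with library totals alone. At 72 h it had 31.8, 40.8, 42.1 and 43.1 CPM with LPS, against 61.3, 62.2 and 61.5 CPM in controls, without overlap but short of the threshold (-0.62 ± 0.28, adjusted p = 0.093). The difference of the effects, 72 h minus 8 h, was called (-1.27 ± 0.37, adjusted p = 0.0078) and held in all 11 settings and without any single library. Reads of Rpl22l1 per 100 of Rpl22 were 13.3 ± 1.19 with LPS and 9.5 ± 2.11 in controls at 8 h, 6.09 ± 1.10 and 9.04 ± 0.88 at 24 h, and 4.61 ± 2.27 and 7.03 ± 0.96 at 72 h. The 72 h range with LPS reached down to 1.30 in replicate 1, where Rpl22 stood at 2439.7 CPM. Rps4l, a low-level copy, had 5.97 ± 1.04 CPM with LPS and 3.46 ± 0.763 CPM in controls at 24 h (0.79 ± 0.26, edgeR adjusted p = 0.015, n = 4 each). Its reads may be shared with Rps4x, and it overlaps Tmtc1 on the opposite strand. Rps4x itself had 409 ± 12.5 CPM with LPS and 583 ± 50.0 CPM in controls there (-0.51 ± 0.24, edgeR adjusted p = 0.088). All its LPS libraries lay below all controls, but it was not called. The source of the Rps4l reads was not tested. The Rps4l call was lost with library totals alone, without the filter on low counts and without control 24 h replicate 2. Rpl39l and Rpl3l were called in none of these comparisons; Rpl3l rests on 135 reads over all libraries.

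Cell extract and LPS, set against each other, differed most at 72 h. There 14 members were lower with cell extract than with LPS and 0 higher, beside 11.4% and 11% of all genes, with a member median of -0.57 (all genes -0.07) and 79 of 82 below 0. Beside Rpl24 they included Rpl37a (221 ± 46.5 CPM with cell extract, 502 ± 169 with LPS), Rps18 (609 ± 78.2, 1289 ± 527), Rps29 (1217 ± 22.2, 2100 ± 157), Rpl13a (994 ± 37.0, 1661 ± 253), Rpl15, Rpl38, Rpl41, Rpl7, Rps15, Rps20 and the copy Rps4l. Rps29, the member with the highest level per length, had 1215, 1196 and 1241 CPM with cell extract against 2094, 2318, 1950 and 2039 CPM with LPS (-0.79 ± 0.29, adjusted p = 0.049). The Rps4l call was lost without the filter on low counts, without rRNA-rich libraries, when only the groups compared were fitted, and without cell extract 72 h replicate 2 or 3. Fau, which encodes the small-subunit protein eS30 fused to a ubiquitin-like part, was likewise lower, at 340 ± 17 CPM against 930 ± 377 CPM (-1.45, adjusted p = 0.0038), as was Rpl36al at 179 ± 13.0 CPM against 405 ± 163 CPM (-1.17). Rack1, listed under its older symbol Gnb2l1, and Rps27rt were not called there.

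The count of 14 is sensitive to single libraries. It ran from 2 to 16 when each library was left out in turn, lowest without cell extract 72 h replicate 2, and was 2 without rRNA-rich libraries and 7 with depth as a covariate. The median kept its sign in each of these and in the other settings (-0.66 to -0.30 over the libraries left out). At 8 h 3 members were lower with cell extract than with LPS and 0 higher (all genes 15.1% and 14%), among them Rps20 (633 ± 57.0 CPM, 998 ± 276) and Rpl7 (373 ± 19.8 CPM, 518 ± 119). Rps20 was lost in 2 and Rpl7 in 6 of 10 other settings. At 24 h 2 were lower and 0 higher (8.76% and 8.06%), among them Rpl7l1 (79.4 ± 4.54 CPM with cell extract, n = 3, and 103 ± 7.62 with LPS, n = 4; -0.37 ± 0.12, adjusted p = 0.028), a call lost in 4 of 10 settings.

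The effects at 72 and 8 h differed for few members. The cell extract effect was lower at 72 than at 8 h for Rpl37a (-1.43 ± 0.46, adjusted p = 0.020) and Rpl7l1, 2 lower and 0 higher (all genes 8.75% and 13.1%). For LPS Rpl22l1 and Rpl7l1 were lower, 2 and 0 (14.3% and 15.7%), and for IL-4 Rpl37a was lower (-1.89 ± 0.46, adjusted p = 0.0038), 1 and 0 (6.57% and 9.51%). The Rpl37a differences were lost with depth as a covariate and without rRNA-rich libraries.

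In untreated cultures no member was called over time. Controls at 24 h against 8 h had 0 higher and 0 lower (all genes 0.323% and 0.213%; 0 and 3 members at an unadjusted p under 0.05; 0 and 0 by DESeq2). Their median log2 fold change was -0.28 (1 above 0, 81 below), beside -0.02 over all genes. Controls at 72 h against 8 h had 0 and 0 (6.38% and 7.16%; 9 and 1 at an unadjusted p under 0.05; 4 higher by DESeq2), with a median of 0.33 (66 above 0, 16 below) beside -0.05 over all genes. With depth as a covariate that median was 0.03. Rpl13a and Rplp0, common reference genes for quantitative PCR, and Rps6 and Rpsa, the laminin receptor homologue, were called in none of the comparisons of a stimulus with its control. Rps6 for example had 417, 506, 455 and 525 CPM with LPS at 72 h against 259, 334 and 389 CPM in controls (0.54 ± 0.25, adjusted p = 0.091).

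Genes that build ribosomes were called far more often than the ribosomal protein genes at 8 h with cell extract. The list of these genes was chosen with earlier results of these data known, so its counts are not an independent test. Of all tested genes 13% were higher and 17.2% lower in that comparison. Of 40 ribosome biogenesis genes, which process ribosomal RNA and assemble the subunits in the nucleolus, 32 rose and 0 fell with cell extract at 8 h, with a median log2 fold change of 0.65; the members' count there was 1 and 1. Rrs1 had 107 ± 4.74 CPM with cell extract and 29.5 ± 2.39 CPM in controls (1.87 ± 0.14). Tsr1, which acts in small-subunit maturation, had 31.1 ± 4.01 and 15.4 ± 1.49 CPM (1.02 ± 0.12). Nop16 had 36.3 ± 3.89 and 19.3 ± 1.67 CPM (0.91 ± 0.13) and Pno1 161 ± 5.11 and 90.9 ± 8.31 CPM (0.82 ± 0.13), each with n = 4 per group and edgeR adjusted p-values of 3.1e-06 or below. The count stayed between 29 and 38 in every setting, single libraries left out included.

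With LPS at 8 h 12 biogenesis genes rose and 1, Nop16, fell, and Wdr43 rose most, to 184 ± 20.9 CPM against 50.7 ± 9.17 CPM (1.86 ± 0.14, adjusted p = 7.4e-15). The count fell to 4 with library totals alone. Of all genes 21.3% were higher and 24.1% lower with LPS at 8 h, and 4.29% and 4.04% with IL-4. Between cell extract and LPS at 8 h these shares were 14% and 15.1%. Set directly against LPS at 8 h, cell extract had 21 biogenesis genes higher and 1, Wdr43, lower (19 to 35 in the other settings, 16 to 29 with each library left out), with Nop16 at 36.3 ± 3.89 CPM against 15 ± 2.13 CPM (1.28 ± 0.14, adjusted p = 5e-10). IL-4 gave 4 higher and 0 lower at 8 h, and 12 higher and 2 lower at 72 h, where Wdr75 had 48.6 ± 3.16 CPM against 24.7 ± 3.31 CPM in controls (0.99 ± 0.17, adjusted p = 1.9e-05, n = 3 each). At 24 h cell extract gave 4 and 0, LPS 8 and 1 and IL-4 5 and 0. All genes gave 11.7% and 10.4%, 18.6% and 19.3%, and 4.74% and 4.76% at 24 h in that order. Their shares at 72 h were 14.2% and 12.2%, 16.1% and 15.4%, and 13.2% and 10.5%. At 72 h cell extract gave 3 and 4 and LPS 1 and 7, with Gnl3, the nucleolar GTPase nucleostemin, at 30.3 ± 1.97 CPM with LPS and 55.1 ± 5.93 CPM in controls (-0.86 ± 0.14, adjusted p = 4.6e-06).

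**Figure D4:**
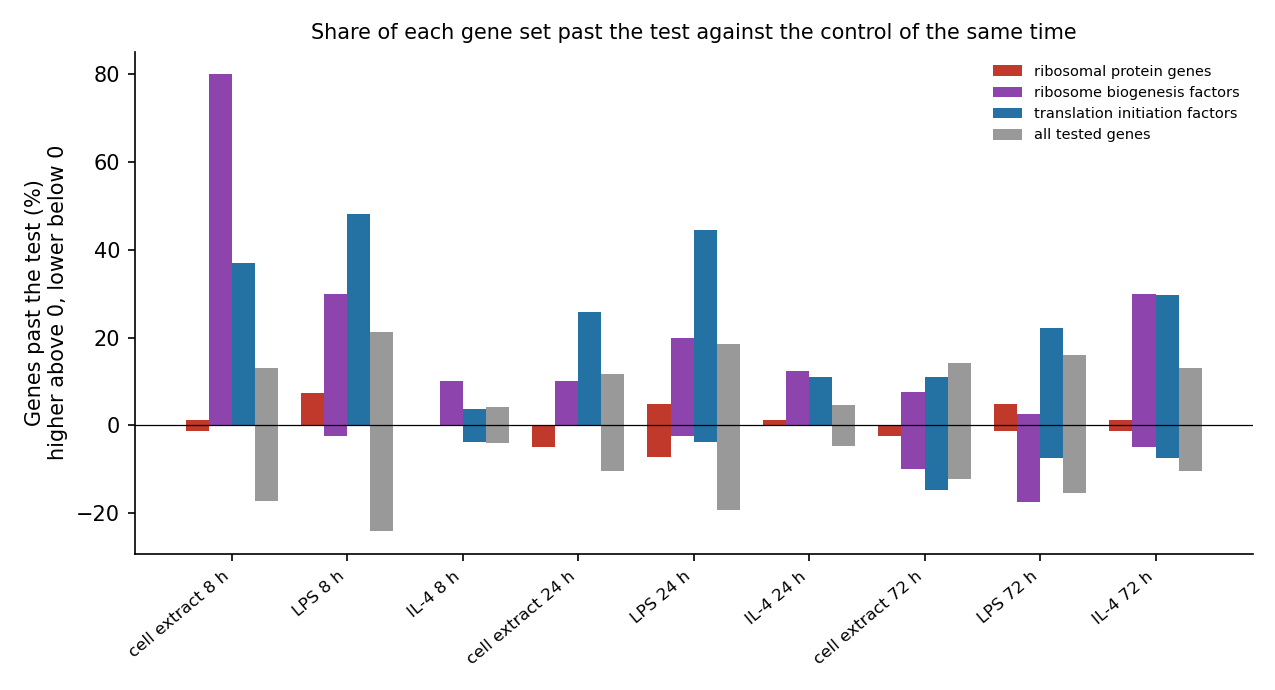
Share of the 82 ribosomal protein genes, 40 ribosome biogenesis genes, 27 translation initiation factors and all tested genes (vertical axis, percent) that passed the edgeR test higher (above 0) or lower (below 0) than the control of the same time, for each stimulus and time. The biogenesis bar with cell extract at 8 h reaches 80.0%, and the ribosomal protein bars lie within 10% of 0 throughout.

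Some translation factors were called, to be read beside the shares of all genes. At 8 h 13% were higher and 17.2% lower with cell extract, 21.3% and 24.1% with LPS, and 4.29% and 4.04% with IL-4. At 24 h these shares were 11.7% and 10.4%, 18.6% and 19.3%, and 4.74% and 4.76% in that order. At 72 h they were 14.2% and 12.2%, 16.1% and 15.4%, and 13.2% and 10.5%. Of 27 initiation factors, 10 rose and 0 fell with cell extract and 13 and 0 with LPS at 8 h, and 7 and 0, and 12 and 1, at 24 h; IL-4 gave 1 and 1 at 8 h and 3 and 0 at 24 h. At 72 h they were 3 and 4 with cell extract, 6 and 2 with LPS, and 8 and 2 with IL-4. Eif6, which keeps the large subunit from joining too early, had 158 ± 21.1 CPM with cell extract and 230 ± 36.8 CPM with LPS, against 67.9 ± 10.4 CPM in controls at 8 h (1.21 ± 0.17 and 1.76 ± 0.17, adjusted p = 2.4e-07 and 2e-11). A further 22 genes with TOP mRNAs, elongation factors among them, were checked. With cell extract at 24 h 1 rose and 5 fell, and with LPS 1 and 4. The 4 falls with LPS lay near the share of all genes. The members' counts were 0 and 4 with cell extract, and 4 and 6 with LPS. Eef2, the translocating elongation factor, had 673 ± 58.8 CPM with LPS and 1072 ± 68.4 CPM in controls at 24 h (-0.67 ± 0.16, adjusted p = 0.00062). Eif4b, a helper of the cap helicase, had 179.7 ± 8.60 and 280.0 ± 19.2 CPM (-0.64 ± 0.10, adjusted p = 2.3e-06). At 8 h these 22 gave 1 and 2 with cell extract, 1 and 1 with LPS and 0 and 0 with IL-4, and at 72 h 1 and 1, 2 and 0, and 0 and 0. Of 11 genes of ribosomal RNA transcription, 1 rose with cell extract at 8 h and 2, Ubtf and Polr1b, fell with LPS. Both counts lay below the shares of all genes. The gene that rose, Rrn3, had 59.8 ± 3.04 CPM against 39.4 ± 2.99 CPM in controls (0.60 ± 0.13, edgeR adjusted p = 0.00036).

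Markers of other cells moved with the stimuli at 72 h, beside the member shifts of that time. Of 13 tested mesothelial and fibroblast markers, 12 were lower with cell extract, 12 with LPS and 8 with IL-4 than in controls at 72 h, and Pdpn was higher in each. The median log2 fold change of the 13 was -3.02 with cell extract, -3.06 with LPS and -1.45 with IL-4. Summed over the list, levels were 526 to 545 CPM with cell extract, 663 to 783 with LPS and 335 to 367 with IL-4. Controls had 693 to 1306 CPM. This sum includes Pdpn, which rose, and so does not show the size of the other falls. Of 14 proliferation markers, 10, 12 and 8 were lower with cell extract, LPS and IL-4. Of all genes 12.2%, 15.4% and 10.5% were lower in that order. The part of these cells in the ribosomal protein levels was not tested.

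The reads behind these values are short and many ribosomal protein genes have near-identical processed pseudogenes in the genome. For every 100 reads counted to genes, 41.7 to 92.8 further alignments per library were set aside as not unique, and rows named as ribosomal protein pseudogenes held 0.015 to 0.109% of counts. Of the 82 tested genes, 48 overlap another annotated gene and 29 overlap a small nucleolar RNA gene by position, on either strand. On the opposite strand 24 overlap a gene, among them Rpl10a, Rpl22l1, Rpl3 and Rps4l. The strand setting of the counting is not given in the sources used here, so the reads of such pairs cannot be told apart, and levels of members rich in pseudogenes are uncertain.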

How the data were processed

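RNA of 44 macrophage cultures in 12 groups was measured as polyA RNA-seq with single-end reads of 50 bases, per the labels' protocols. The authors deposited 1 table of raw read counts per gene; the submitters' processing notes name cutadapt, Bowtie2, TopHat2 2.1.1, HTSeq, DESeq, edgeR and, as genome, mm10. Which gene models were counted, and with which strand option, is not given in the sources used here. Gene counts ran from 0.908 to 26.6 M per library, and 5 summary entries of the counter were left out of totals and tests; reads it called ambiguous were 5.39% of gene plus ambiguous reads.

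Members were chosen by symbol, and the members and all gene lists were chosen with earlier results of these data known. Positions come from GENCODE M21 on GRCm38 and start windows from RefSeq on GRCm38.p6. Genes passing filterByExpr with a minimum count of 10 (14537) entered 1 edgeR 4.0.16 quasi-likelihood fit in R 4.3.3 with a coefficient for each group and TMM scaling, with 32 residual degrees of freedom; p-values were adjusted by Benjamini-Hochberg over all tested genes of a comparison. The script was tested on simulated data. Alternatives used DESeq2 1.42.0, other scalings, filters, samples and covariates. Named members were up to 4 largest called rises and falls per comparison with a mean of at least 10 CPM, the paralogs, the reference genes Rplp0, Rps6, Rpsa and Rpl13a, and the highest and lowest by CPM per kb; other lists gave up to 4 genes with the smallest p. Smaller calls, Fau, Rpl36al, Eif4b at 24 h, Ubtf and Polr1b were named after their values were seen. Replicate numbers were checked under a rule that every same-numbered pair of libraries correlate above 0.1. It was not met (lowest -0.35), so the block is an alternative only. A single pair is enough to fail this rule, so its failure does not show that the libraries are unpaired. Same-numbered libraries did correlate more on average (0.153, against -0.049 for different numbers). Of 44 libraries, 33 lay closest to their own number, and the main fit leaves this structure out. With the block, 2 counts or medians moved, 52 kept to the main value, and 0 named calls were lost. A few ribosomal protein genes are counted but not reported by name here.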

Additional observations from a re-analysis of the deposited data

Results flagged for a closer look

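Of 272 sets of library values for 32 genes, the summed level and the share, 35 had a library far from the rest of its group. The test was Dixon's, which by chance marks about 1 in 20. Only groups with 4 libraries were screened. Cell extract 24 h, cell extract 72 h, IL-4 72 h and control 72 h, with 3 libraries each, were not, so their outliers are unknown. Most came from IL-4 24 h replicate 1, the shallowest library, where the members' share was 8.28% and their summed level 81917 CPM. There Rpl10a stood at 562 CPM, Rpl13a at 1619.8, Rpl19 at 257, Rpl22 at 1517, Rpl3 at 913, Rpl37a at 962, Rpl38 at 1776, Rpl39 at 1084 and Rpl39l at 5.45 CPM. Rpl4 stood at 1294 CPM, Rpl41 at 2298, Rpl7l1 at 122, Rplp0 at 766, Rps15 at 1117, Rps16 at 971, Rps18 at 2064, Rps27 at 1542, Rps4x at 1197 and Rpsa at 1705 CPM. All of these were the highest of their group.

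LPS 72 h replicate 1, also under 2 M counts, was high for Rpl22 (2439.7 CPM), Rpl41 (1847 CPM), Rps18 (2077 CPM) and Rpsa (1657 CPM), and LPS 72 h replicate 2 stood apart for Rpl4 (916 CPM). LPS 24 h replicate 2 was low in the members' summed level (25819 CPM) and for Rpl10a (88.4 CPM). Control 24 h replicate 1 was low for Rpl10 (293 CPM). Cell extract 8 h replicate 3 stood apart for Rpl22 (673 CPM), Rpl3 (403 CPM) and Rpl3l (0.567 CPM), and replicate 1 for Rps4l (4.29 CPM). Rpl3l, read a few times per library, also stood apart in IL-4 8 h replicate 4 (0.949 CPM) and control 24 h replicate 4 (0.756 CPM).

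Effects that differed between 72 and 8 h by the interaction term of the edgeR fit were Rpl37a with cell extract (-1.43) and with IL-4 (-1.89), Rpl7l1 with cell extract (-0.62) and with LPS (-0.49), and Rpl22l1 with LPS (-1.27).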

How the results depend on the processing

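Values below are counts of members called, or the median member log2 fold change, where they moved from the main values; comparisons are with the control of the same time unless stated, and causes were not tested. Of 570 values of counts and medians over the settings, 433 kept to the main value and 137 moved. A count kept to it if it lay within a set ratio of the main count. A median kept to it if it moved by less than the SD between libraries of a group, and so could change sign. The IL-4 median at 24 h did so without replicate 1 and is not listed below. Of 1982 values of named genes over settings, none reversed and 308 lost the call. Leaving out shallow or rRNA-rich libraries and the depth covariate were chosen after seeing the data. Without rRNA-rich libraries a lone control 72 h library remained, assumed to vary like the other groups. With RLE scaling there were 0 lower for cell extract 8 h, 2 lower for cell extract 24 h, 2 higher for IL-4 24 h and 0 higher and 3 lower for IL-4 72 h. The same setting gave 1 higher for control 72 h against control 8 h and 2 lower for the IL-4 effect over time. With upper-quartile scaling there were 0 lower for cell extract 8 h, 1 higher and 7 biogenesis genes higher for LPS 8 h, 2 higher for LPS 24 h and 2 higher for IL-4 24 h. It also gave 0 higher and 3 lower for IL-4 72 h, 1 higher for control 72 h against control 8 h and 0 lower for cell extract 8 h against LPS 8 h. Further, it gave 1 lower for cell extract 24 h against LPS 24 h, 1 lower for the LPS effect over time, 2 lower for the IL-4 effect over time. With scaling on other genes only there were 0 lower for cell extract 8 h, 2 lower for cell extract 24 h, 0 higher for IL-4 72 h. Without the filter on low counts there were 2 higher and 0 lower for cell extract 8 h, 1 lower and 6 biogenesis genes higher for LPS 8 h, 1 higher for IL-4 8 h and 14 lower for cell extract 24 h. This setting also gave 13 lower for LPS 24 h, 17 higher for IL-4 24 h and 1 higher and 6 lower for cell extract 72 h. Likewise it gave 10 higher and 2 lower for LPS 72 h, 8 lower for IL-4 72 h, 1 lower for control 24 h against control 8 h and 8 higher and 2 lower for control 72 h against control 8 h. The same setting gave 1 higher for cell extract 24 h against LPS 24 h, 26 lower for cell extract 72 h against LPS 72 h and 1 lower for the cell extract effect over time. It also gave 1 higher and 1 lower for the LPS effect over time, 1 higher and 8 lower for the IL-4 effect over time. In fits of only the groups compared there were 2 higher for cell extract 8 h, 25 lower for cell extract 24 h, 0 higher for IL-4 24 h and 15 lower for cell extract 72 h. Further, it gave 2 lower for LPS 72 h, 0 higher and 14 lower for IL-4 72 h and 1 higher for control 72 h against control 8 h. This setting also gave 5 lower for cell extract 8 h against LPS 8 h, 2 higher and 15 lower for cell extract 24 h against LPS 24 h, 1 higher and 23 lower for cell extract 72 h against LPS 72 h and 1 higher and 5 lower for the cell extract effect over time. Likewise it gave 1 lower for the LPS effect over time. With DESeq2 there were 0 lower for cell extract 8 h, 7 higher for IL-4 24 h, 0 higher and 3 lower for IL-4 72 h and 4 higher for control 72 h against control 8 h. The same setting gave 7 lower for the IL-4 effect over time. With library totals alone there were 0 higher and 13 lower and a median of -0.30 and 4 biogenesis genes higher for LPS 8 h, 7 lower for cell extract 24 h, 1 higher and 16 lower for LPS 24 h and 4 lower for cell extract 72 h. It also gave 3 lower for LPS 72 h, 0 higher and 3 lower for IL-4 72 h and 1 higher for control 72 h against control 8 h. Further, it gave 5 higher and 0 lower and a median of 0.22 and 35 biogenesis genes higher for cell extract 8 h against LPS 8 h, 1 higher and 1 lower for cell extract 24 h against LPS 24 h, 1 higher for cell extract 72 h against LPS 72 h and 3 higher and 1 lower and a median of 0.51 for the LPS effect over time. This setting also gave 3 lower for the IL-4 effect over time. With rRNA-rich libraries left out there were 0 lower for cell extract 24 h, 2 lower for LPS 24 h, 2 higher and 0 lower and a median of 0.012 for cell extract 72 h and 0 lower and a median of 0.64 for LPS 72 h. Likewise it gave 2 higher and 0 lower and a median of -0.011 for IL-4 72 h, 2 lower for control 72 h against control 8 h and 1 lower for cell extract 8 h against LPS 8 h. The same setting gave 1 lower for cell extract 24 h against LPS 24 h, 2 lower for cell extract 72 h against LPS 72 h, 0 lower and a median of -0.069 for the cell extract effect over time and 1 lower for the LPS effect over time. It also gave 1 higher and 0 lower for the IL-4 effect over time. With the replicate block there were 2 higher for IL-4 24 h, 8 higher for LPS 72 h. Without libraries under 2 M counts there were 0 higher for IL-4 24 h, 1 higher and 4 lower for cell extract 72 h, 11 higher and 3 lower for LPS 72 h and 2 higher and 3 lower for IL-4 72 h. Further, it gave 1 higher and a median of -0.30 for cell extract 72 h against LPS 72 h, 1 higher for the LPS effect over time and 4 lower for the IL-4 effect over time. With depth as a covariate there were 1 lower and a median of 0.048 for cell extract 72 h, 8 higher for LPS 72 h, 0 higher and a median of 0.13 for IL-4 72 h and 1 lower and a median of 0.029 for control 72 h against control 8 h. This setting also gave 1 higher for cell extract 24 h against LPS 24 h, 7 lower for cell extract 72 h against LPS 72 h and 1 lower and a median of 0.11 for the cell extract effect over time. Likewise it gave 1 higher and 1 lower for the LPS effect over time, 0 lower and a median of 0.33 for the IL-4 effect over time. Leaving out each library in turn gave 1 to 2 higher and 0 to 1 lower for cell extract 8 h, 1 to 7 higher and 7 to 11 biogenesis genes higher for LPS 8 h, 0 to 5 lower for cell extract 24 h and 2 to 4 higher and 3 to 6 lower for LPS 24 h. The same setting gave 0 to 6 higher for IL-4 24 h. Such omissions also gave 0 to 1 higher and 1 to 4 lower for cell extract 72 h, 1 to 2 lower for LPS 72 h, 0 to 1 higher and 1 to 3 lower for IL-4 72 h and 0 to 7 higher and 0 to 1 lower for control 72 h against control 8 h. It also gave 0 to 3 lower for cell extract 8 h against LPS 8 h. Such omissions also gave 1 to 2 lower for cell extract 24 h against LPS 24 h, 0 to 1 higher and 2 to 16 lower and a median of -0.66 to -0.30 for cell extract 72 h against LPS 72 h, 1 to 2 lower for the cell extract effect over time and 1 to 3 lower for the LPS effect over time. Further, it gave 0 to 1 higher and 1 to 9 lower for the IL-4 effect over time. Replicate numbers did not meet the rule for pairing, since not every pair of same-numbered libraries correlated above 0.1. Their mean correlation was 0.153, against -0.049 for different numbers, and 33 of 44 libraries lay closest to their own number; the values with the block are above. Depth limits the 5 libraries under 2 M counts and the rarely read copies.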

Other observations

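Most of the tested host genes of small nucleolar RNAs were higher with LPS at 72 h. Their spliced transcripts also begin with TOP tracts but do not encode ribosomal proteins. Of 8 tested, 7 were higher and 0 lower with LPS at 72 h (median log2 fold change 1.34), beside the members' 4 and 1. 1500012F01Rik, also named Zfas1, had 313 ± 50.8 CPM with LPS and 50.8 ± 10.2 CPM in controls (2.63 ± 0.31), and Gas5 had 458 ± 119 and 170 ± 19.8 CPM (1.43); edgeR adjusted p-values were under the threshold for both. Cell extract at 72 h gave 5 and 0 and IL-4 3 and 0. At 24 h LPS gave 4 and 0, cell extract 0 and 1, and IL-4 1 and 0. At 8 h LPS gave 2 and 2, cell extract 2 and 0, and IL-4 0 and 0. For LPS, cell extract and IL-4 in that order, all genes gave 16.1% and 15.4%, 14.2% and 12.2%, and 13.2% and 10.5% at 72 h. The shares were 18.6% and 19.3%, 11.7% and 10.4%, and 4.74% and 4.76% at 24 h. They were 21.3% and 24.1%, 13% and 17.2%, and 4.29% and 4.04% at 8 h.

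Growth regulators were called in both directions, as were genes as a whole. At 8 h 13% of all genes were higher and 17.2% lower with cell extract, 21.3% and 24.1% with LPS. With IL-4 these shares were 4.29% and 4.04%. Of 21, 4 were higher and 5 lower with cell extract, 7 and 6 with LPS and 1 and 0 with IL-4 at 8 h. Larp1, which binds TOP mRNAs, had 490 ± 46.5 CPM with LPS and 98.2 ± 13.3 CPM in controls at 8 h (2.32 ± 0.15), and Mxi1, a Myc antagonist, 17.4 ± 1.06 CPM with cell extract and 80.2 ± 5.46 CPM in controls (-2.21). For cell extract, LPS and IL-4 in that order, counts were 3 and 4, 6 and 5, and 1 and 0 at 24 h. At 72 h they were 6 and 2, 6 and 4, and 7 and 1. All genes gave 11.7% and 10.4%, 18.6% and 19.3%, and 4.74% and 4.76% at 24 h. At 72 h all genes gave 14.2% and 12.2%, 16.1% and 15.4%, and 13.2% and 10.5%. Of 10 tested translation brakes and rescue factors, 1 rose and 4 fell with both cell extract and LPS at 8 h; Eif2ak2, the interferon-induced kinase PKR, had 423 ± 52.7 CPM with LPS and 27.8 ± 5.22 CPM in controls (3.92). At 24 h they gave 1 and 2 with cell extract and 1 and 3 with LPS, at 72 h 3 and 1, 2 and 1, and 3 and 0 with IL-4; IL-4 gave 0 and 0 before.

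Markers of other cells, with LPS at 72 h, gave 0 higher and 1 lower of 5 for B cells, 2 and 0 of 5 for T cells, 2 and 0 of 3 tested for neutrophils, 0 and 2 of 5 for mast cells and eosinophils, 2 and 0 of 5 for dendritic cells and 0 and 2 of 4 for muscle. With cell extract at 72 h these were 0 and 3, 2 and 0, 0 and 0, 0 and 1, 1 and 0, and 0 and 2. The macrophage list gave 5 higher and 2 lower with LPS and 6 and 1 with cell extract. Of all genes 16.1% were higher and 15.4% lower with LPS at 72 h, and 14.2% and 12.2% with cell extract.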
